A study of Mus musculus with 16 samples.

Results

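The DNA damage response and repair genes described here are 38 genes listed by name and grouped by repair pathway. No cut on a measured value was used, but the list was chosen with earlier results of these data known. All 38 were found among the 25965 rows of the RNA-seq gene table. RPKM is the read count scaled by gene length and library size. The filter on low values asked for at least 0.5 RPKM in at least 2 of the 8 libraries of growing oocytes. It was passed by 10518 of all rows, and all 38 repair genes passed it. They comprise 6 genes of damage signalling and checkpoint control, 9 of homologous recombination, 3 of end recognition and resection, 3 of single-strand DNA binding, 3 of end joining, 7 of base excision and single-strand break repair, 1 of mismatch repair, 3 of the Fanconi anaemia pathway and 3 of nucleotide excision repair.

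Oocytes were collected by hand from ovaries of wild-type C57BL/6 mice (C57BL/6Babr in the study's methods) and sorted by diameter, to follow transcription and de novo DNA methylation through oocyte growth. RNA-seq was done on 2 libraries of pooled oocytes, A and B, from each of 4 diameter classes (10–30 µm, then 40–45 µm, then 50–55 µm, and last 60–65 µm) and on 1 library of GV oocytes, the fully grown stage with an intact germinal vesicle. Reduced representation bisulphite sequencing (RRBS), which reads CpG-rich fragments, was done on 2 libraries of each class from 40–45 µm upwards, and post-bisulphite adaptor tagging (PBAT), which samples the whole genome, on 1 library of 60–65 µm oocytes. For RNA the classes came from mice of postnatal days 5 to 7, 7 to 10, 10 to 15 and 12 to 18, and GV oocytes from days 20 to 21, so that age and diameter cannot be told apart (these are the days listed library by library, and the study's methods give partly different, overlapping ranges for the 3 larger classes). No class carried a mutation or a treatment, and the labels do not say whether A and B came from separate animals, so that p-values measure the spread between these pools.

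Cells meet DNA damage in successive steps. Sensors and kinases such as ATM and ATR recognise breaks and stalled forks and signal through the checkpoint kinases, and in oocytes of the resting reserve the CHK2 kinase activates p63, which can commit a damaged oocyte to death. Broken ends are joined directly or repaired by homologous recombination, while damaged bases, mismatches, bulky lesions and crosslinks are each handled by pathways of their own.

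The libraries carried oocyte RNA throughout. The 12 oocyte markers, among them Zp3 and Gdf9, summed to between 2614 and 3643 RPKM in the 9 libraries. Of 14 granulosa markers 11 to 13 lay under 0.5 RPKM in each library and Krt19 was listed at 0, but their summed level was 2.27 and 2.69 RPKM at 10–30 µm and 8.04 and 7.40 RPKM at 60–65 µm, where most of it came from Nr5a2. The 10 theca and stroma markers summed to 4.07 and 2.92 RPKM at 10–30 µm and to 1.16 and 1.10 RPKM at 60–65 µm. The 5 endothelial markers summed to 1.06 and 1.17 RPKM at 10–30 µm and to 5.93 and 5.34 RPKM at 60–65 µm, where most of it came from Pecam1 and Emcn was listed at 0. The part of these shifts in the results on the repair genes was not tested. Steps between low RPKM values placed the libraries at about 99400000 to 198300000 counted reads, and the repair gene with the fewest reads, Xpa, rested on about 145 in the growing library where it was lowest.

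The start sites of the repair genes bear on the methylation values given further on. Promoters were taken from RefSeq (GRCm38.p6) as the 250 bases before the start site, and 31 of the 38 genes had an entry within 1 kb of the start in the gene table. These held a median of 17 CpGs, the same median as in 6777 promoters of genes tested for expression, and ranged from 3 CpGs at Lig1 to 28 at Apex1. The promoters with an entry that belong to the genes with the largest falls (Atm, Chek2 and Parp1) and to the gene with the largest rise (Lig4) are shown 5′ to 3′, with every CpG in capitals because the CpG is the unit that bisulphite sequencing measures. They lie at chr9:53536672-53536921 on the minus strand (Atm), chr5:110839733-110839982 on the plus strand (Chek2), chr1:180568641-180568890 on the plus strand (Parp1) and chr8:9977681-9977930 on the minus strand (Lig4).
Atm: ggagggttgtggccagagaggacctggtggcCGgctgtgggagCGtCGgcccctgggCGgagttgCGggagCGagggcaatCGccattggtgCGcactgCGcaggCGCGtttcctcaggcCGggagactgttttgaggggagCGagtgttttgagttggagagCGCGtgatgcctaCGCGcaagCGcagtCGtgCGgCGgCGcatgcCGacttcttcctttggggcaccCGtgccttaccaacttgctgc
Chek2: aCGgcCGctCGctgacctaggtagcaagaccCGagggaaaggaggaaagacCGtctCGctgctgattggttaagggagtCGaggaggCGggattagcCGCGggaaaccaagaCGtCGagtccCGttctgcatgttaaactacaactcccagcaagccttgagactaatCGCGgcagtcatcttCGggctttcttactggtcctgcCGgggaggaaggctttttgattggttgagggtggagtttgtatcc
Parp1: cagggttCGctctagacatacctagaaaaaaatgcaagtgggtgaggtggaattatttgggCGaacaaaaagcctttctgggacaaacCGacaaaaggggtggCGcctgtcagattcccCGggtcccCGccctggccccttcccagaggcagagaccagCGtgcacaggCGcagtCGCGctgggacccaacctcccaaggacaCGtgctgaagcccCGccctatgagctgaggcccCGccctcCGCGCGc
Lig4: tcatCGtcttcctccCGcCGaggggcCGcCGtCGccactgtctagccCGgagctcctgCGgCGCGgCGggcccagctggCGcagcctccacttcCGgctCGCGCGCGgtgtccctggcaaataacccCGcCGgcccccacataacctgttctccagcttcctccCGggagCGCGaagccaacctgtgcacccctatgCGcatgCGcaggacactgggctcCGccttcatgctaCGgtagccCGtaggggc

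Of these windows Atm and Lig4, which moved in opposite directions, held the most CpGs with 24 and 27, against 17 in Chek2 and 16 in Parp1. The letters CCAAT, searched on both strands, were present in 17 of the 31 promoters (54.8%) and in 38.2% of all 6777. GGGCGG, the letters of a GC box, was found on either strand in 19 of them (61.3%) against 61.9% of all. GCGCNTGCG, the letters of an NRF1-type motif, was found on either strand in 4 (12.9%), those of Atm, Lig4, Palb2 and Xpa, against 13.6% of all. Another gene started on the opposite strand within 1 kb of the start of 17 of the 38 repair genes (44.7%), among them Npat beside Atm, Nbr1 beside Brca1, Wrap53 beside Trp53 and Abhd13 beside Lig4, and of 2111 of 10502 tested genes with a usable position (20.1%). Over part of their span 13 repair genes overlapped a gene on the other strand (Atr, for example, overlapped 1700065D16Rik) and 0 overlapped one on the same strand. The RNA-seq libraries kept strand, but whether the values in the deposited gene table were counted by strand is not given in the sources used here, so reads of such pairs may not be separated.

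The repair genes were expressed at every size, at levels a little above the typical gene. The median repair gene lay at 4.15, 3.93, 4.29 and 4.27 RPKM in the 4 classes from the smallest to the largest, against 3.04, 2.92, 3.02 and 3.12 RPKM for all 10518 genes tested. Lowest among them was Trp53 at 10–30 µm, 0.788 ± 0.315 RPKM (SD, n = 2), and Ercc1 at 60–65 µm, 0.704 ± 0.0527 RPKM. Highest was Parp1 at 10–30 µm, 23.7 ± 1.31 RPKM, and Chek1 at 60–65 µm, 25.4 ± 1.54 RPKM. Of the 38, 8 stayed above 10 RPKM in every growing library and 5 lay under 1 RPKM in at least 1. RPKM is a share of the reads in a library, so that less RNA of a gene per oocyte and more of all other RNA cannot be told apart, and neither can fewer cells of a type and less RNA per cell.

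Over the whole of growth, from 10–30 to 60–65 µm, the list did not move as a block. The adjusted p from limma over all genes tested was under 0.05 for 21 repair genes, of which 7 were higher and 14 lower at 60–65 µm, and 17 passed in neither direction. Among all genes tested 32.2% were called higher and 31.3% lower, so that the falls were near the background share and the rises below it. The median log2 difference of the repair genes was -0.01 against 0.01 for all genes. Through the 4 class means 13 repair genes were lower at every step (34.2%, against 28.1% of all genes tested) and 8 were higher at every step (21.1%, against 29.9%). Without either 60–65 µm library, A or B, fewer repair genes passed in each direction, and so did fewer of all genes tested. The heatmap of the 38 genes over the 9 libraries shows both directions, with Atm, Atr and Chek2 below their starting level and Lig4 furthest above it.

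**Figure D1:**
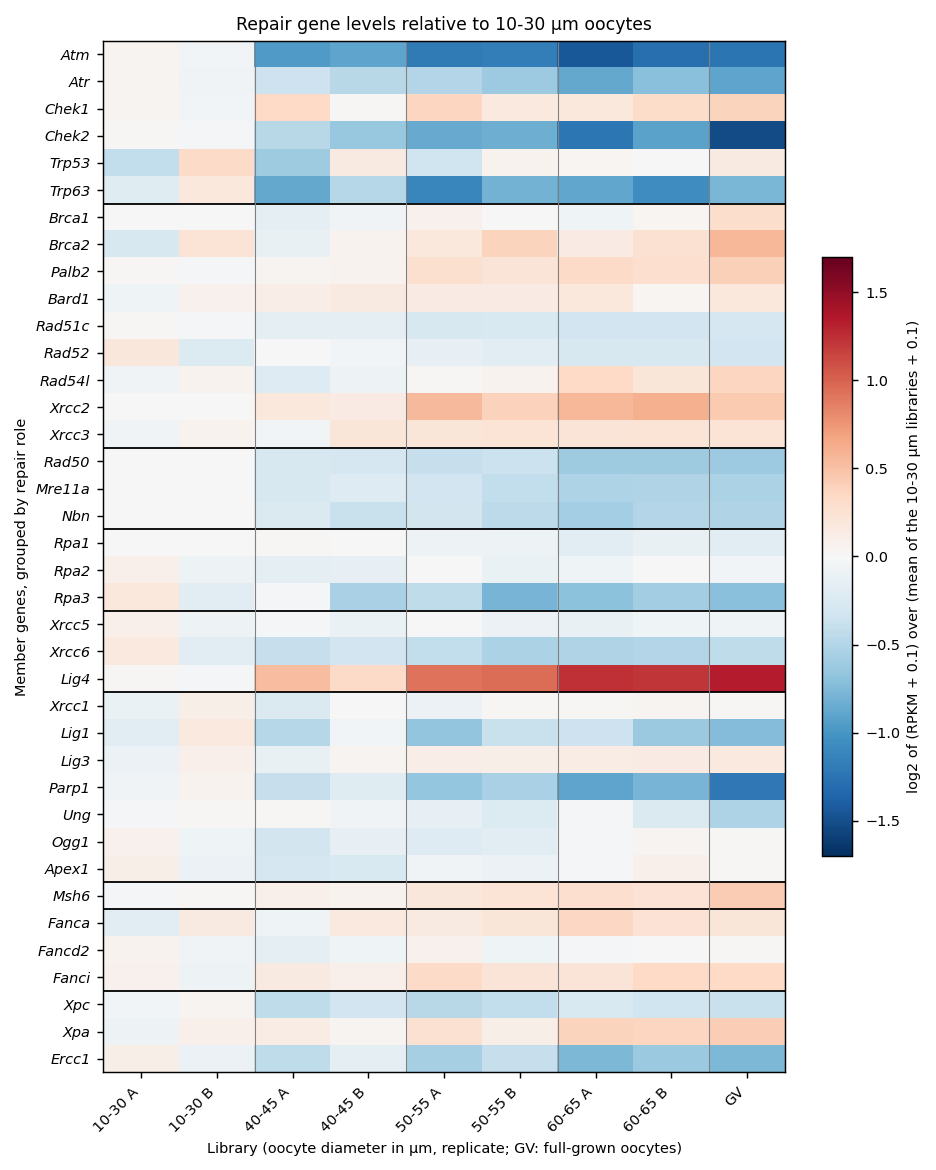
Each row is a repair gene and each column a library, ordered by oocyte diameter with the GV library last; colour is the log2 ratio of RPKM + 0.1 to the mean of the 2 libraries of 10–30 µm, and black lines separate the 9 repair roles. Atm and Chek2 are the deepest blue rows at 60–65 µm (log2 differences of -1.35 and -1.05) and Lig4 the deepest red (1.24).

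The largest falls were those of damage signalling genes. Of the 6 listed, 4 were called lower at 60–65 µm and 0 higher, beside 31.3% lower and 32.2% higher over all genes tested, with a median log2 difference of -0.86. Of 18 other tested genes of damage signalling 7 were called higher and 3 lower, with a median log2 difference of 0.17. Atm, the kinase that responds to double-strand breaks, measured 2.54 and 2.38 RPKM at 10–30 µm, 1.22 and 1.27 at 40–45 µm, 1.012 and 1.03 at 50–55 µm, 0.838 and 0.953 at 60–65 µm and 0.978 in the GV library. Every later library lay below both of the smallest class, with the widest gap at the first step. The log2 difference over growth was -1.35 ± 0.11 (SE, n = 2 and 2), 2.55-fold lower, with adjusted p = 2.56e-05. Atm spans chr9:53439149-53536740 on the minus strand (GRCm38).

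Chek2, the checkpoint kinase downstream of ATM, measured 2.88 and 2.78 RPKM at 10–30 µm, 2.01 and 1.78 at 40–45 µm, 1.52 and 1.54 at 50–55 µm, 1.151 and 1.46 at 60–65 µm and 0.916 in the GV library. Both smallest-class libraries lay above every later one, and the GV value was the lowest of all 9. From 10–30 to 60–65 µm the log2 difference was -1.05 ± 0.14, 2.07-fold lower (adjusted p = 0.000261). Trp63, which encodes the p53 relative that monitors genome integrity in oocytes, measured 2.34 and 3.07 RPKM at 10–30 µm, 1.44 and 1.91 at 40–45 µm, 1.196 and 1.51 at 50–55 µm, 1.42 and 1.25 at 60–65 µm and 1.54 in the GV library. The libraries of the smallest class differed from each other by more than those of any later class, yet both lay above all later values. Its log2 difference was -0.94 ± 0.16, 1.92-fold lower (adjusted p = 0.00125).

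Atr, the kinase of stalled replication forks, fell from 13.2 ± 0.688 to 7.63 ± 0.625 RPKM, a log2 difference of -0.77 ± 0.12 (adjusted p = 0.000605). Chek1, its effector kinase, had the highest RPKM of the group and did not pass, with 21.4 ± 1.04 and 25.4 ± 1.54 RPKM at 10–30 and 60–65 µm (log2 difference 0.26 ± 0.15, adjusted p = 0.157). Trp53, the p53 gene, lay between 0.482 and 1.011 RPKM in the 8 growing libraries. Its libraries of 10–30 µm were among the furthest apart of any class, and the log2 difference over growth was 0.07 ± 0.28 (adjusted p = 0.838), the widest standard error among the 38 genes.

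In homologous recombination 3 of 9 genes were called higher, near the 32.2% of all genes, 1 lower and 5 neither, with a median log2 difference of 0.23, but without either 60–65 µm library, A or B, Xrcc2 alone kept its call (1 higher, 0 lower). Xrcc2, a recombination factor, measured 2.14 and 2.15 RPKM at 10–30 µm, 2.43 and 2.37 at 40–45 µm, 3.18 and 2.83 at 50–55 µm, 3.21 and 3.29 at 60–65 µm and 2.96 in the GV library. Each class lay above the class before it without overlap, and the GV library lay below both of 60–65 µm. Over growth Xrcc2 had a log2 difference of 0.59 ± 0.10, 1.51-fold higher (adjusted p = 0.00116).

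Palb2, which brings BRCA2 to damage sites, measured 3.81 and 3.73 RPKM at 10–30 µm, 3.91 and 3.94 at 40–45 µm, 4.59 and 4.41 at 50–55 µm, 4.77 and 4.63 at 60–65 µm and 5.03 in the GV library. Both libraries of each class lay above those of the class before. Over growth this was a log2 difference of 0.32 ± 0.09 (adjusted p = 0.0148). Rad54l, a motor protein that aids strand invasion, rose from 0.997 ± 0.0648 to 1.23 ± 0.0881 RPKM, a log2 difference of 0.29 ± 0.10 (adjusted p = 0.0394).

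Brca1, a ubiquitin ligase subunit that steers breaks to recombination, measured 6.77 and 6.69 RPKM at 10–30 µm, 6.05 and 6.44 at 40–45 µm, 7.09 and 6.73 at 50–55 µm, 6.42 and 6.88 at 60–65 µm and 8.28 in the GV library. The first and last classes overlapped, and the GV library stood above all others. The log2 difference was -0.01 ± 0.09 (adjusted p = 0.955). Brca2, a mediator of strand exchange, measured 6.83 and 9.72 RPKM at 10–30 µm, 7.58 and 8.64 at 40–45 µm, 9.37 and 10.8 at 50–55 µm, 9.16 and 9.91 at 60–65 µm and 12.3 in the GV library. Library B was above library A in each class and the first and last classes overlapped, with a log2 difference of 0.23 ± 0.15 (adjusted p = 0.191).

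Rad51c, which acts in the same pathway, was the recombination gene called lower. It measured 2.77 and 2.71 RPKM at 10–30 µm, 2.42 and 2.43 at 40–45 µm, 2.24 and 2.27 at 50–55 µm, 2.17 and 2.16 at 60–65 µm and 2.22 in the GV library. The decline was small, but A and B lay close together and no class overlapped the one before. Its log2 difference over growth was -0.31 ± 0.09 (adjusted p = 0.0176). The remaining 3, Bard1 (the partner of BRCA1), the annealing factor Rad52 and the recombination factor Xrcc3, had log2 differences of 0.12 ± 0.10, -0.25 ± 0.16 and 0.24 ± 0.10 and did not pass.

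**Figure D2:**
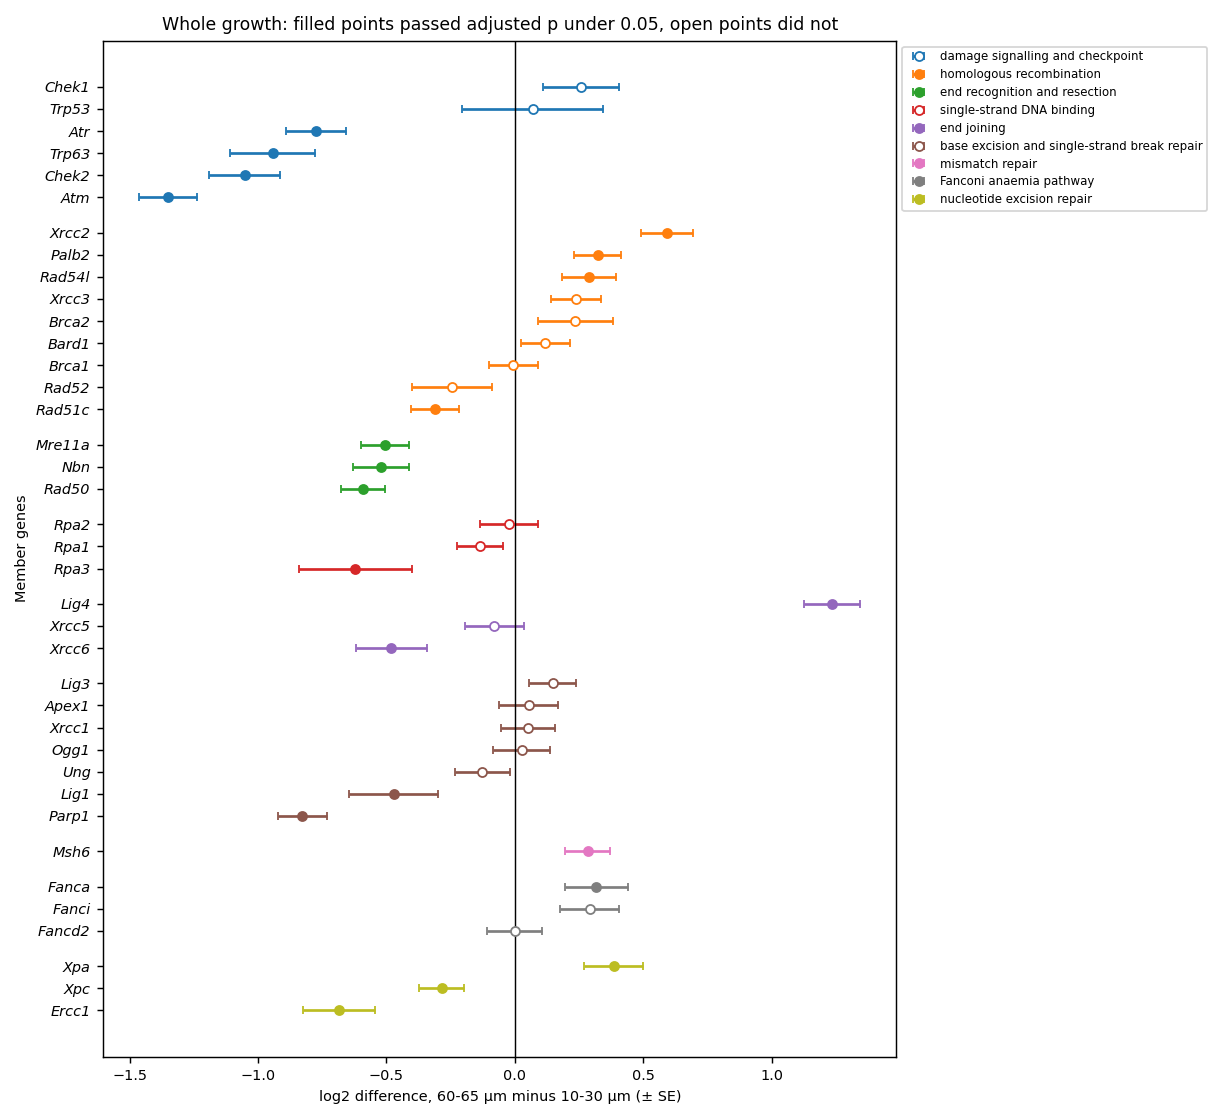
Points are log2 differences between 60–65 and 10–30 µm oocytes with their standard errors (n = 2 and 2 libraries), coloured by repair role and filled where adjusted p was under 0.05. All 3 listed end resection genes sit left of 0 with filled points, where 31.3% of all genes tested were called lower. Lig4 lies furthest right at 1.24.

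The genes of the MRE11 complex, which senses and trims broken ends, were all 3 called lower, with log2 differences between -0.59 and -0.51. Over all genes tested 31.3% were called lower. Of 3 other tested genes of end recognition and resection 1 was called higher, 1 lower and 1 neither. Rad50 fell from 20.5 ± 0.214 to 13.5 ± 0.0150 RPKM (log2 difference -0.59 ± 0.09, adjusted p = 0.000486). Nbn fell from 4.53 ± 0.0499 to 3.10 ± 0.129 RPKM (-0.52 ± 0.11, adjusted p = 0.00339). Mre11a, the nuclease, fell from 2.88 ± 0.00753 to 1.99 ± 0.0137 RPKM (-0.51 ± 0.09, adjusted p = 0.00185). On the RPKM scale Rad50 was the highest of these partners in every library.

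Of the subunits of replication protein A, which coats single-stranded DNA, the smallest was called lower and the others were not. Over all genes tested 31.3% were called lower. Rpa3 fell from 11.001 ± 2.02 to 7.003 ± 0.337 RPKM (log2 difference -0.62 ± 0.22, adjusted p = 0.0365), a call lost without 10–30 µm A or either 60–65 µm library. Rpa1 and Rpa2 had log2 differences of -0.14 ± 0.09 and -0.02 ± 0.11 and stood at 20.7 ± 0.524 and 9.24 ± 0.370 RPKM at 60–65 µm.

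End joining contained the largest rise of the list. Lig4, the ligase that seals ends in the classical pathway, measured 2.99 and 2.93 RPKM at 10–30 µm, 4.31 and 3.74 at 40–45 µm, 5.71 and 5.80 at 50–55 µm, 7.13 and 6.98 at 60–65 µm and 7.59 in the GV library. No class overlapped another, and every class lay above the one before. Over growth this amounted to a log2 difference of 1.24 ± 0.11, 2.36-fold higher (adjusted p = 3.44e-05). The Ku subunits, which bind ends first, had other values. Xrcc6 (Ku70) fell from 5.97 ± 1.013 to 4.18 ± 0.0252 RPKM (log2 difference -0.48 ± 0.14, adjusted p = 0.0153), a call lost without 10–30 µm A or either 60–65 µm library, and Xrcc5 (Ku80) did not pass, at 18.2 ± 1.49 and 17.1 ± 0.430 RPKM (log2 difference -0.08 ± 0.12, adjusted p = 0.565).

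**Figure D3:**
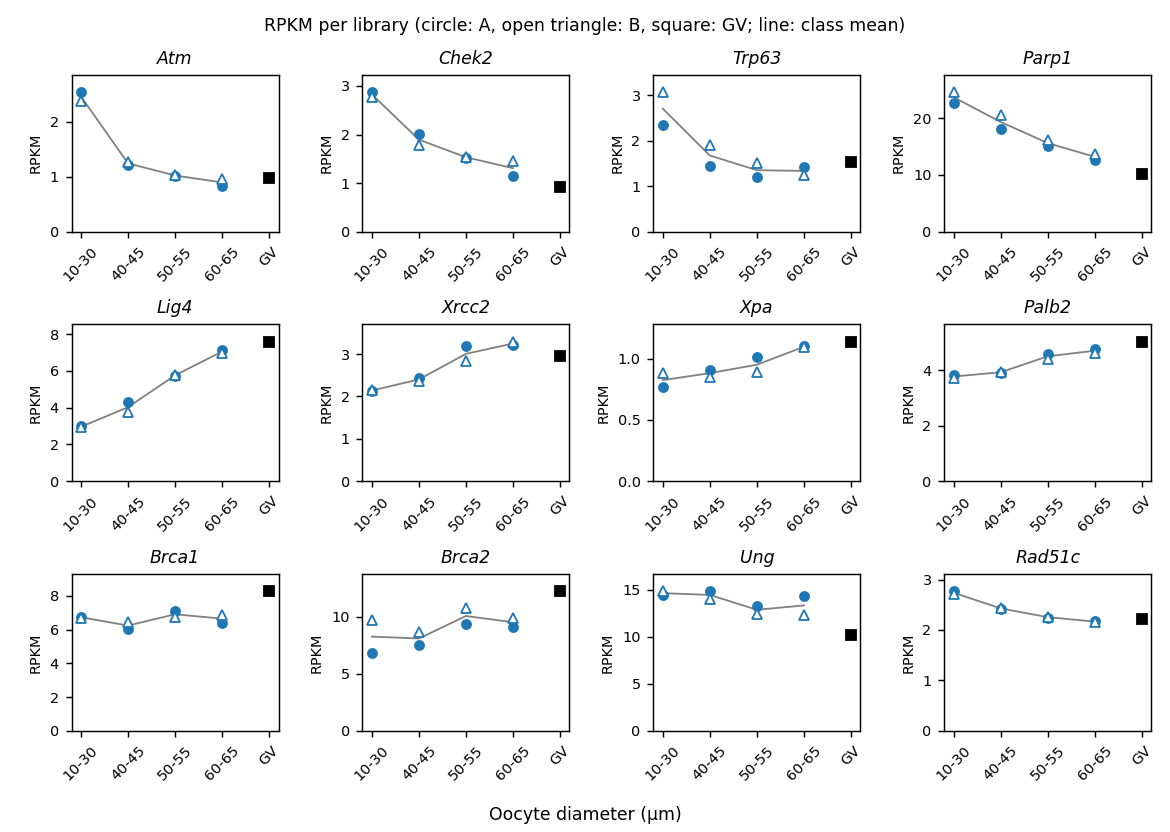
RPKM in each library of 12 repair genes against oocyte diameter, with filled circles for replicate A, open triangles for B, a square for the single GV library and a grey line through the class means; each axis starts at 0. Atm drops most between 10–30 and 40–45 µm, whereas Parp1 declines and Lig4 climbs in every class.

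In base excision and single-strand break repair 2 of 7 genes were called lower, near the 31.3% of all genes, 0 higher, and 5 did not pass. Without either 60–65 µm library, A or B, Parp1 alone kept its call. Parp1, the sensor of single-strand breaks, measured 22.7 and 24.6 RPKM at 10–30 µm, 18.1 and 20.6 at 40–45 µm, 15.03 and 16.2 at 50–55 µm, 12.7 and 13.7 at 60–65 µm and 10.1 in the GV library. Every class lay wholly below the class before it, and the GV value was lowest. The log2 difference was -0.83 ± 0.10, 1.77-fold lower (adjusted p = 0.000149). Ung, the glycosylase that removes uracil from DNA, measured 14.5 and 14.8 RPKM at 10–30 µm, 14.9 and 14.1 at 40–45 µm, 13.3 and 12.5 at 50–55 µm, 14.4 and 12.3 at 60–65 µm and 10.2 in the GV library. The GV library lay below every growing one, and the log2 difference over growth was -0.13 ± 0.11 (adjusted p = 0.328).

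Lig1, the ligase of replication and long-patch repair, fell from 3.76 ± 0.685 to 2.65 ± 0.374 RPKM (log2 difference -0.47 ± 0.17, adjusted p = 0.0402). The remaining 4, the scaffold Xrcc1, the ligase Lig3, the oxidised-guanine glycosylase Ogg1 and the abasic-site nuclease Apex1, had log2 differences of 0.05 ± 0.11, 0.15 ± 0.09, 0.03 ± 0.11 and 0.05 ± 0.11.

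Of the mismatch repair and Fanconi anaemia genes Msh6 and Fanca were called higher, where 32.2% of all genes tested were. Both calls were lost without either 60–65 µm library, A or B. Msh6, which recognises base mismatches, rose from 12.1 ± 0.286 to 14.6 ± 0.266 RPKM (log2 difference 0.28 ± 0.09, adjusted p = 0.0196). In the Fanconi anaemia pathway, which handles crosslinks, Fanca of the core complex rose from 1.411 ± 0.246 to 1.76 ± 0.101 RPKM and only just passed (log2 difference 0.32 ± 0.12, adjusted p = 0.0487), a call lost in 12 of 18 alternatives. Fanci just missed the threshold with 5.45 ± 0.433 and 6.63 ± 0.388 RPKM (0.29 ± 0.12, adjusted p = 0.0541), and its partner Fancd2 measured 4.20 ± 0.251 and 4.16 ± 0.0212 RPKM (adjusted p = 0.998).

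The 3 genes of nucleotide excision repair passed with all libraries, 1 higher and 2 lower, beside 32.2% and 31.3% of all genes tested. The calls of Xpa and Xpc did not hold without either 60–65 µm library, A or B. Xpa, which verifies the lesion, measured 0.770 and 0.880 RPKM at 10–30 µm, 0.910 and 0.854 at 40–45 µm, 1.010 and 0.892 at 50–55 µm, 1.10 and 1.09 at 60–65 µm and 1.14 in the GV library. Neighbouring classes overlapped up to 50–55 µm, and both 60–65 µm libraries lay above all smaller classes. The log2 difference was 0.38 ± 0.11 (adjusted p = 0.0171). Xpc, which finds the lesion, fell from 4.10 ± 0.177 to 3.32 ± 0.137 RPKM (log2 difference -0.29 ± 0.09, adjusted p = 0.0211). Ercc1, a subunit of the nuclease that cuts beside it, fell from 1.204 ± 0.127 to 0.704 ± 0.0527 RPKM (-0.68 ± 0.14, adjusted p = 0.00306).

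When growth was divided into its 3 steps, which share libraries with each other and with the comparison over whole growth, few repair genes passed within a single step. From 10–30 to 40–45 µm 4 were called lower and 1 higher, where 10.4% of all genes were called lower and 12.8% higher. The falls were Atm (log2 difference -0.87 ± 0.11, 1.83-fold lower, adjusted p = 0.00199), Trp63 (-0.60 ± 0.16, adjusted p = 0.0325), Chek2 (-0.50 ± 0.14, adjusted p = 0.0339) and Xpc (-0.32 ± 0.09, adjusted p = 0.0345). The rise was Lig4 (0.49 ± 0.11, adjusted p = 0.0157). The count of falls was 1 without 40–45 µm A, 5 without 10–30 µm B and 2 without any other single library, and that of rises was 0 without 40–45 µm A. Of all genes called at this step 55.3% were higher, and 41.7% with no scaling between libraries.

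From 40–45 to 50–55 µm Lig4 alone was called, higher by 0.49 ± 0.11 on the log2 scale (adjusted p = 0.0326), and the call was lost without 40–45 µm B or without any library of 50–55 or 60–65 µm. The limma test called 0 repair genes lower at this step, with 2 lower at an unadjusted p under 0.05 (Atm and Parp1). Of all genes 5.89% were called higher and 3.21% lower, so that 64.7% of the calls were higher, and 51.9% after quantile normalization. These counts rest on single libraries: 0 genes of all were called without 40–45 µm B or without 50–55 µm A, against 946 higher and 729 lower without 10–30 µm A. From 50–55 to 60–65 µm limma called 0 repair genes in either direction and 0% of all genes either way. An unadjusted p under 0.05 was found there for 1447 genes (13.8%), among them Lig4 higher and Parp1 and Rad50 lower, and the smallest adjusted p of a repair gene was 0.266.

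A wider list of 121 other repair genes gives the setting. Of these 116 were in the table and 108 were tested. Over whole growth 31 were called higher and 31 lower, beside 32.2% and 31.3% of all genes tested. The other 46 passed in neither direction, and the median log2 difference of the wider list was 0.04. The count of falls was 16 without 60–65 µm A. By role (damage signalling is given above) 5 were higher and 2 lower of 18 in homologous recombination. Base excision and single-strand break repair had 5 and 7 of 16, and end joining 3 and 4 of 8. The Fanconi anaemia pathway had 4 and 1 of 11, and nucleotide excision repair 3 and 5 of 15. Mismatch repair had 2 and 3 of 6, and end recognition and resection 1 and 1 of 3. Direct reversal had 0 and 2 of 3, and translesion synthesis 1 and 3 of 10. At the first step 7 of the wider list were called higher and 11 lower, beside 12.8% and 10.4% of all genes tested. At the second 4 were higher and 2 lower, beside 5.89% and 3.21%. The largest falls were those of Mgmt, which reverses guanine alkylation directly (13.4 ± 2.27 to 4.34 ± 0.492 RPKM, log2 difference -1.59 ± 0.15, adjusted p = 4.51e-05), the LIG4 partner Xrcc4 (5.04 ± 0.610 to 1.87 ± 0.151 RPKM, -1.37 ± 0.15, adjusted p = 0.000114) and the death effector Bax (8.10 ± 0.747 to 3.28 ± 0.0450 RPKM, -1.26 ± 0.11, adjusted p = 3.37e-05). The largest rises were those of Trp73, a relative of p53 (0.137 ± 0.0452 to 0.683 ± 0.198 RPKM, log2 difference 1.72 ± 0.19, adjusted p = 0.000112), the end-joining factor Nhej1 (2.75 ± 0.221 to 7.63 ± 0.288 RPKM, 1.45 ± 0.17, adjusted p = 0.000146) and the polymerase Polm (0.774 ± 0.157 to 2.24 ± 0.730 RPKM, 1.41 ± 0.20, adjusted p = 0.000424). Some of these genes passed the filter only through classes where they were high, among them Trp73, which lay under the filter level in both 10–30 µm libraries. Without genes under that level in both libraries of the lower class, 29 were higher and 29 lower.

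The single GV library, which allows no test, lay above both 60–65 µm libraries for 16 repair genes, below both for 14 and between them for 8. Over all genes tested it lay above both for 35.1% and below both for 46.2%. Its ratio to the 60–65 µm mean ranged from 0.700 at Chek2 to 1.29 at Brca2. The next lowest ratios were those of Ung (0.762) and Parp1 (0.767), and the next highest that of Brca1 (1.24).

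DNA methylation was measured at the same genes, as the mean over CpG positions read at least 5 times. Each strand of a CpG counts as a position of its own. Within 1 kb of the gene start 30 repair genes had values from both RRBS libraries at 40–45 µm, 30 at 50–55 µm and 31 at 60–65 µm. Their median was 0.580% at 40–45 µm, 0.366% at 50–55 µm and 0.551% at 60–65 µm, beside 0.589%, 0.576% and 0.619% for genes tested for expression. With 1 library left out the median ran from 0.357% (without B) to 0.538% at 40–45 µm, from 0.0986% (without A) to 0.612% (without B) at 50–55 µm and from 0.399% to 0.478% at 60–65 µm, so no order between classes or against all genes is read from these medians. By class mean 0 repair genes reached 10% in RRBS, where only 0.220%, 1.05% and 1.496% of genes tested for expression did from the smallest to the largest class, and the highest value in a single library was 6.47%. The highest class mean at 60–65 µm was that of Brca2, 3.62 ± 4.02% (SD, n = 2). These class values are a description: an exact two-sided permutation test of 2 libraries against 2 cannot give a p below 0.333, and no model across genes was fitted to them.

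On the promoter windows printed above RRBS gave 8 methylated of 4049 calls at Atm (0.198%) and 53 of 6938 at Lig4 (0.764%) over its 6 libraries. It hardly touched those of Chek2 and Parp1, with 2 and 4 calls. PBAT gave 4.87% of 267 calls at Atm, 4.24% of 118 at Chek2, 7.26% of 179 at Parp1 and 5.56% of 216 at Lig4. Around gene starts the PBAT median was 3.25% over 36 repair genes and 3.51% over genes tested for expression. The one repair gene above 10% was Lig1, 47.9% on 11 positions, whose promoter held the fewest CpGs. That is 2.78% of the repair genes measured, beside 7.65% of genes tested for expression.

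**Figure D4:**
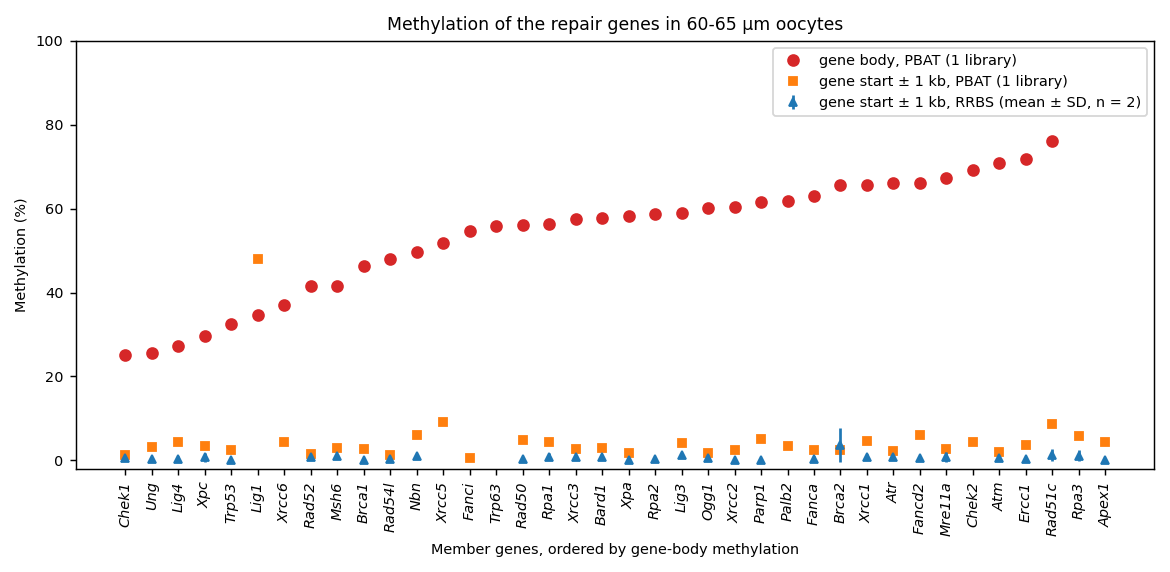
Methylation in 60–65 µm oocytes for each repair gene, ordered by gene-body level, with red circles for the gene body and orange squares for the gene start in the single PBAT library and blue triangles for the gene start in RRBS (mean ± SD, n = 2 libraries). Gene bodies range from 25.2% to 76.2% while gene starts stay under 10% apart from Lig1 in PBAT.

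Over gene bodies, from 1 kb past the start to the end of genes of at least 4 kb, methylation was high. In the PBAT library of 60–65 µm oocytes 36 repair genes had values, with a median of 57.7% against 48.4% for 8893 genes tested for expression and 9.17% for genes under the expression filter. At least 50% was reached by 24 of the 36 (66.7%), against 46.6% of the genes tested for expression. The highest were Rad51c (76.2%), Ercc1 (71.8%) and Atm (70.8%), and the lowest Chek1 (25.2%, on 15 positions), Ung (25.7%) and Lig4 (27.2%). Genes that fell were found at high levels, such as Chek2 (69.3%), and at low ones, such as Xpc (29.7%). Among genes that did not pass Xrcc1 (65.7%) was high and Chek1 low. The 7 genes called higher were at 27.2% (Lig4), 41.5% (Msh6), 48.0% (Rad54l), 58.3% (Xpa), 60.4% (Xrcc2), 61.8% (Palb2) and 63.1% (Fanca). The tested genes were divided into 4 equal bins of RPKM at 60–65 µm. From the lowest bin to the highest, the repair genes had medians of 58.3%, 58.9%, 56.1% and 56.4%. All tested genes of the same bins had 42.6%, 51.7%, 50.8% and 45.9%. The bins held 5, 10, 10 and 11 repair genes, and the 5 of the lowest bin ran from 32.4% to 71.8%. Across the 36 genes body methylation and the 60–65 µm log2 RPKM had a Pearson's r of -0.247 and a Spearman's rho of -0.264, a description of 1 PBAT library in which genes are not independent replicates.

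RRBS covers few gene-body positions, but 11 repair genes had at least 10 of them in both libraries of 40–45 and of 60–65 µm. In all 11 both 60–65 µm libraries lay above both 40–45 µm libraries, as in 88.2% of the 3076 genes tested for expression with such values. Fanca went from 4.92% and 2.74% to 56.9% and 60.7%, Parp1 from 3.17% and 14.3% to 61.8% and 54.9%, and Xpa from 3.03% and 0.237% to 55.8% and 56.6%. Brca2 went from 2.90% and 2.90% to 48.7% and 41.5%, and was at 24.9% and 41.8% at 50–55 µm, where B lay above B of 60–65 µm. Lig4, Trp53, Lig1 and Ung stayed under 10% at 60–65 µm, and Xrcc6 was at 12.2% and 15.9%. The body of Lig4, the gene with the largest rise in RNA, was at 2.54% and 6.25% in these fragments. The median was 1.86% over 12 repair genes at 40–45 µm and 40.7% over 11 at 60–65 µm, beside 1.93% and 26.8% for genes tested for expression. At 50–55 µm the median was 5.10% over 8 repair genes beside 13.1%. Those 8 leave out Rpa1, Parp1 and Xpa, which had too few positions in B and stood at 27.9%, 25.8% and 26.7% in A. The genes measured differ between classes, so no change of order between classes is read from these medians. At least 10% was reached by 7 of the 11 at 60–65 µm (63.6%, beside 72.1% of genes tested for expression) and by 3 of the 8 at 50–55 µm (37.5%, beside 57.8%). The positions read differ between libraries, and this measure was added after the data were seen.

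**Figure D5:**
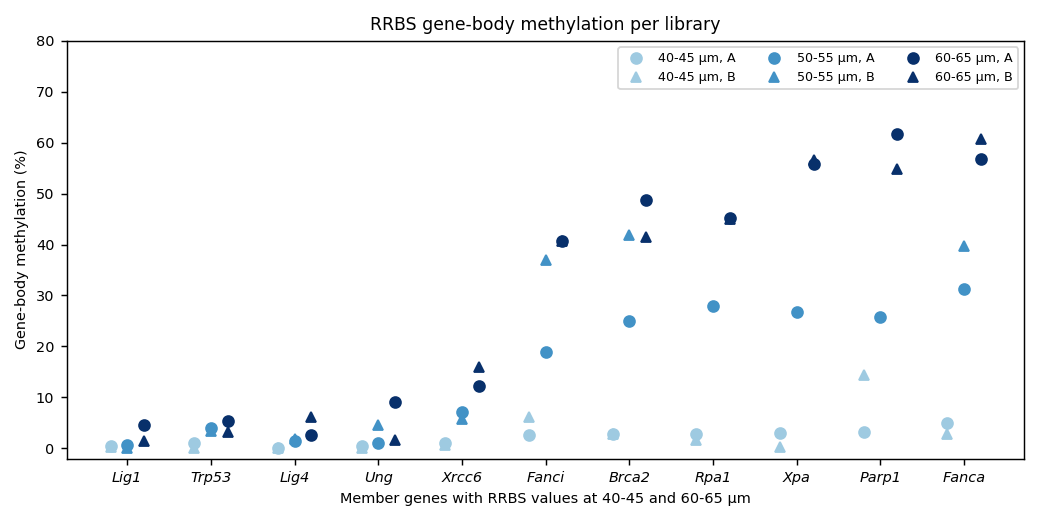
RRBS gene-body methylation of the 11 repair genes measured in both libraries at 40–45 and 60–65 µm, with circles for replicate A, triangles for B and darker blue for larger oocytes; a missing 50–55 µm point had fewer than 10 positions. In every gene the darkest points lie above the palest, from under 10% at Lig1 to above 50% at Fanca.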

How the data were processed

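RNA-seq, RRBS and PBAT were read from 16 deposited libraries (9, 6 and 1). The authors deposited 1 RPKM value per gene and RNA library, and per the labels' processing notes and the study's methods reads were trimmed with Trim Galore (0.2.8 for RNA, 0.3.5 for bisulphite reads) and RNA reads mapped to GRCm38 with TopHat2 2.0.9. The libraries were strand-specific. The study describes Cufflinks estimates against reference and oocyte transcriptomes and analysis in SeqMonk, but which of these made the deposited table, and whether it used strand, is not given in the sources used here. For each cytosine of a CpG, with the strands listed apart, the authors deposited a percent methylation with counts of methylated and unmethylated reads. These came from Bismark 0.14.0 (RRBS) or 0.10.0 (PBAT). A position is such a cytosine, and the printed Atm window of 24 CpGs held 49 PBAT positions. Duplicates were removed for PBAT, while for RRBS no removal is stated, so that repeated reads may be counted more than once.

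RPKM values were scaled between libraries by a trimmed mean, put on a log2 scale with a pseudocount of 0.1, filtered (at least 0.5 RPKM in 2 of 8 growing libraries, leaving 10518 genes) and fitted with limma 3.58.1 in R 4.3.3, 4 classes in 1 fit, two-sided, Benjamini-Hochberg adjusted over all genes with a threshold of 0.05. Differences are on the log2(RPKM + 0.1) scale, which understates the change of low genes. The single GV library was not tested. Methylation was averaged in Python 3.11.15 over positions with at least 5 reads, needing 5 positions at a start and 10 in a body. RPKM steps gave depth only approximately (83.6 to 86.3% of low values lay within 0.05 of whole reads), so no count test was run. Methylation depth was 29942043 to 57215134 calls per RRBS library and 98148116 for PBAT.

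The repair genes and all lists were chosen with earlier results of these data known. Every gene past the threshold over whole growth was named, with values per library for the 4 largest rises and falls and for Trp63, Atm, Chek2, Brca1, Brca2, Parp1, Ung and Rad51c. The other repair genes named were the 3 largest rises and falls, and the gene bodies named by rule the 3 highest and lowest in PBAT. The RRBS gene-body measure, and the mention of other single genes for methylation, were chosen after their values were seen. Alternatives covered the pseudocount, filter, scaling, variance trend, libraries in the fit, replicate block, each library left out, coverage, window and positions needed. The scripts were tested on simulated data.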

Additional observations from a re-analysis of the deposited data

How the results depend on the processing

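Of the 21 repair genes called over whole growth, 21 kept their direction in all 18 alternatives and 11 kept the call in all of them (Atm, Atr, Chek2, Trp63, Xrcc2, Rad50, Mre11a, Nbn, Lig4, Parp1 and Ercc1). With each library left out in turn, whole growth gave 2 to 6 repair genes higher and 9 to 14 lower, and 22 to 31 other repair genes higher and 16 to 31 lower. The first step gave 0 to 1 higher and 1 to 5 lower, and the second 0 to 1 higher. With only the libraries of the classes compared, 4 were higher over whole growth, 0 higher and 1 lower at the first step and 0 higher at the second. With no filter, 2 were lower at the first step and 0 higher at the second. The cause was not tested. At the second step 75.4% of calls over all genes were higher with no filter.

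The letters A and B were treated as shared names: deviations of same-letter libraries correlated at 0.596, 0.589 and 0.670 among the 3 smaller classes but at -0.227, -0.0254 and 0.113 with 60–65 µm. With the replicate letter as a block, 9 repair genes were higher over whole growth and 14 lower, Xrcc3 and Fanci passing as well (limma adjusted p = 0.0443 and 0.0356), Parp1 was the 1 repair gene called lower at the second step (0 without the block, adjusted p = 0.0313 with it), Atr was the 1 gained at the first step (adjusted p = 0.0391), and at the last step 166 of all genes were called higher and 80 lower, and 0 repair genes. Over all genes 541 were higher and 304 lower at the first step without 40–45 µm A, and 197 and 61 at the second without 50–55 µm B. At the second step the block gave 1092 higher and 790 lower over all genes. A pseudocount of 1 gave 27 higher at the last step.

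Of the genes with no call, Brca2 ran from 0.022 to 0.44 on the log2 scale and passed only without 10–30 µm B (limma adjusted p = 0.0167). There Rad52 passed too (adjusted p = 0.00616). Fanci passed with no scaling (0.0383), with median-of-ratios scaling (0.0481) and without 10–30 µm A (0.0197). Of the genes with no call, 9 changed sign. With median-of-ratios scaling Brca1 was at 0.0026 and Fancd2 at 0.0086 on the log2 scale, with quantile normalization Ogg1 at -0.029 and Apex1 at -0.018, and with only the libraries compared Fancd2 at 0.0021. With each library left out, Trp53 ran from -0.27 to 0.40, Brca1 from -0.063 to 0.053, Rad52 from -0.50 to 0.0028, Rpa2 from -0.16 to 0.11, Xrcc5 from -0.21 to 0.042, Xrcc1 from -0.012 to 0.11, Ogg1 from -0.089 to 0.13, Apex1 from -0.093 to 0.19 and Fancd2 from -0.11 to 0.10.

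The gene-start median in RRBS ran from 0.357% to 0.538% at 40–45 µm, from 0.0986% to 0.612% at 50–55 µm and from 0.399% to 0.478% at 60–65 µm with a library left out, and was 0.622% and 0.616% at 60–65 µm with coverage minimums of 1 and 10. The PBAT gene-body median was 55.0% with a coverage minimum of 1 and 61.1% with a minimum of 10. The median of all tested genes was not recomputed at these minimums.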
